A study of Glycine max with 4 samples.

Results

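Line P06 (CM7F040P06 in the labels) was compared with “M92-220”, the soybean cultivar from which the fast neutron lines were made, in 2 of the 4 arrays of the series. These 2 arrays were chosen by their titles, and held DNA of plant 35 and plant 45. The study describes the plants as the M3:8 generation of the high-sucrose and low-oil mutant FN0176450. For each plant, 500 ng of leaf DNA was labeled with Cy3 and hybridized with Cy5-labeled DNA of “M92-220”, which the labels call M92-220-Long. The other 2 arrays held plants 15 and 39 of line P05 (CM7F040P05), a fast neutron line hybridized against the same parent with the same dyes, and are used here only to show where P06 differs. With 1 plant per array, 2 plants per line and no dye swap on any array, a dye bias of a probe cannot be told apart from a difference between the DNAs. The test of a ratio against 0 leaves out the spread of “M92-220” itself.

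Array comparative genomic hybridization (aCGH) reads the amount of DNA at each probe from the brightness of 2 competing labeled genomes. A homozygous deletion leaves the mutant dye near background, while a deletion in 1 of the homologous chromosomes, or a change in the number of repeat copies, moves the ratio by less. Fast neutrons break DNA strands and leave deletions, duplications and rearrangements. In soybean, the broad regions around the centromeres are poor in genes and rich in repeats, and the probes of this array were spaced to favor genes, so the number of probes in a window follows how genic it is.

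Of 951615 probes, 951298 had a value on every array and were tested. Positions are those of the deposited files on Glyma.Wm82.a2.v1, and the 8054 probes listed on Chr014 were read as chromosome 14. The log2 ratio was mutant over “M92-220”, centered on the median of each array. Across 946475 probes outside the loci described below, the ratios of plants 35 and 45 had a Pearson's r of 0.80, which is a description across probes that share the reference DNA, the dyes and the probe sequence. The spread between successive probes was 0.15 in plant 35 and 0.16 in plant 45 (SD of the log2 ratio).

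Losses in P06 lay mostly on 2 chromosomes. In all, 1502 probes, or 0.158% of those tested, were lower than “M92-220” by more than a log2 ratio of 1 in limma's treat test at an adjusted p under 0.05, and 225, or 0.0237%, were higher. Chromosome 7 held 781 of the lower probes and chromosome 10 held 481, so that 84.0% of them lay on these chromosomes. Chromosome 6 followed with 55, chromosome 18 with 32, chromosome 16 with 27, chromosome 17 with 21, chromosome 14 with 20 and chromosome 12 with 14. Each of the 12 remaining chromosomes held 10 or fewer, down to 2 on chromosome 11. The higher probes were spread otherwise, with 47 on chromosome 18, 21 on chromosome 3, 19 on chromosome 20, 16 on chromosome 15 and 15 on chromosome 7.

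**Figure D1:**
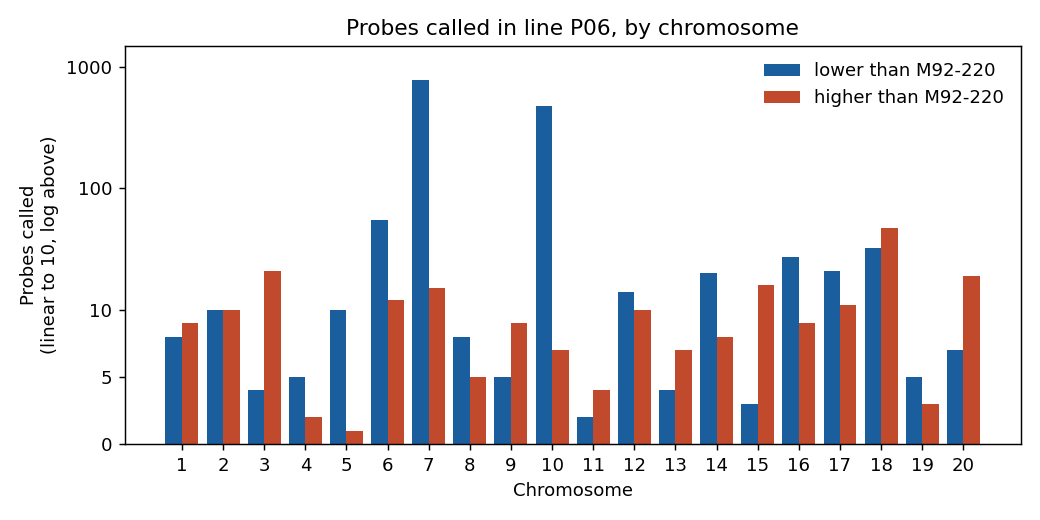
Bars give the number of probes called lower (blue) and higher (red) than M92-220 in line P06 on each of the 20 chromosomes; the vertical axis is linear up to 10 and logarithmic above. Chromosomes 7 and 10 stand above the rest with 781 and 481 lower probes, and chromosome 18 has the most higher probes, 47.

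Lower probes no more than 500 kb apart were joined, and groups of at least 3 formed 16 loci, which held 1418 of the 1502 lower probes (94.4%). With plant 35 left out there were 814 lower probes and 5 loci, and with plant 45 left out 803 and 5, in a fit that takes the spread of the remaining P06 plant from the P05 pair. Of the 5 loci with nearly all probes low, described next, these fits called 1, on chromosome 7, as did a fit to all 4 arrays. The P05 plants differ from each other at the other 4, which widens the spread in those fits. The 4825 probes of the 16 loci formed 3 kinds of locus by how many were low and how bright they were. At 5 loci, 80.3% to 96.8% of the probes were low, some with a mutant signal not well above background in either plant. These are called loci with nearly all probes low, and held 1313 lower probes over 6097 kb. That span counts a stretch of 325 kb on chromosome 7 that was not low. At 6 loci the low probes were bright, with a median “M92-220” signal above 10000, and the locus means were near -1; these held 41 lower probes over 93.4 kb. A few low probes among many that were not low made up the other 5, with 64 lower probes among 3080 probes over 2454 kb. A probe is called low here when its log2 ratio was at or below -1 in both P06 plants.

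The largest locus lay on chromosome 7 (chr7:25414458-29366100, 3952 kb). It held 1002 probes, of which 777 were called lower. Plant 35 averaged a log2 ratio of -4.04 and plant 45 one of -4.08, against -0.0024 in plant 15 and -0.039 in plant 39 of P05. The low probes had a median mutant (Cy3) signal of 21.6 in plant 35, where “M92-220” gave 1124. The mutant signal of 515 probes was not well above background in either plant. For these the ratio is only a bound, taken from the faintest well-measured mutant signal on that array, and the median bound was at least 25-fold lower. The depth of a loss depends on how background is treated. Under normexp background correction, which adds an offset of 50 to both signals, the P06 mean was -1.95 here, -2.46 and -2.11 at the chromosome 10 loci, -2.20 on chromosome 6 and -1.97 on chromosome 14; the values below are without it.

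The chromosome 7 locus was not low throughout. A stretch of 140 probes over 325 kb (chr7:26943763-27269203) had a mean log2 ratio of 0.0066 ± 0.16 in plant 35 and 0.023 ± 0.17 in plant 45 (SD across probes). Before it, 307 low probes over 1529 kb averaged -4.97 in plant 35 and -5.06 in plant 45. After it, 498 low probes over 2080 kb averaged -4.99 and -5.03. The losses thus formed a pair of blocks with a stretch at the level of “M92-220” between them, in both plants. As 515 probes of the locus had a mutant signal not well above background in either plant, the depth of the blocks was not measured. The other 56 probes that were not low were scattered through both blocks and averaged -0.64 in plant 35 and -0.60 in plant 45, against -0.078 in plant 15 and -0.14 in plant 39. Probe spacing limited the left edge, where the nearest probe outside lay 185979 bp away, and the right edge was set within 2089 bp.

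Chromosome 10 held a pair of loci in which nearly all probes were low. At the first (chr10:14796450-15537055, 741 kb), 243 of 251 probes were low, and the plants averaged -4.92 (35) and -5.03 (45). At the second (chr10:19986042-21290005, 1304 kb), 250 of 264 probes were low, with means of -4.83 and -4.87. Neither held a long stretch at the level of “M92-220”. The longest run of probes that were not low was 1 probe at the first and 4 at the second. The mutant signal was not well above background in either plant at 154 and 172 probes, with median bounds of at least 26.1-fold and 21-fold lower.

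Smaller losses of this kind lay on chromosomes 6 and 14. On chromosome 6 (chr6:18128869-18201820, 73.0 kb), 46 of 49 probes were low, with a mean of -4.56 in plant 35 and -4.64 in plant 45. On chromosome 14 (chr14:26774074-26801907, 27.8 kb), 15 of 18 probes were low, with shallower means of -3.05 and -3.10. At these 4 loci of chromosomes 6, 10 and 14, plant 15 of P05 was as low as the P06 plants, at -4.55, -4.97, -4.76 and -3.13 in chromosome order, whereas plant 39 lay between -0.081 and 0.031. The chromosome 7 locus was the one of these 5 at which both P05 plants stayed near 0. Over the 5 loci the P06 means differed little, with an SD between the plants of at most 0.080. Mutant signals of many of these probes were not well above background in either P06 plant, so close means do not measure equal depth.

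**Figure D2:**
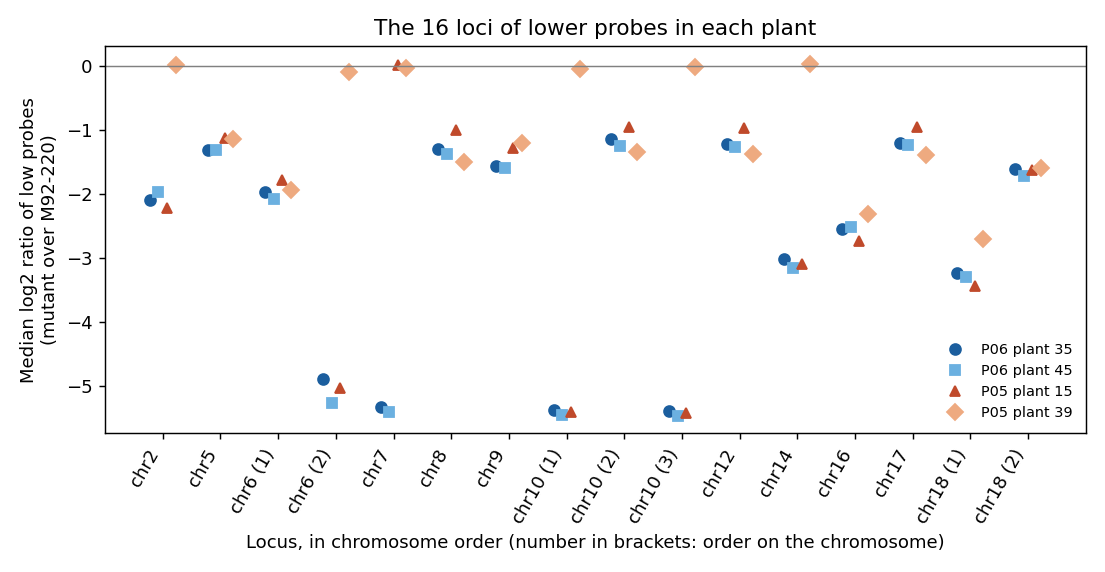
Points give, for each of the 16 loci in chromosome order, the median log2 ratio (mutant over M92-220) of its low probes in the 2 P06 plants (circles, squares) and the 2 P05 plants (triangles, diamonds). At the chromosome 7 locus both P05 plants lie near 0, and at the locus of chromosome 2, the later one of chromosome 6, those numbered 1 and 3 on chromosome 10 and that of chromosome 14 only plant 39 does.

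Loci with bright low probes were short as called, and all 4 plants were low there. They lay on chromosome 5 (chr5:14960705-14965997), chromosome 8 (chr8:32399069-32400507), chromosome 9 (chr9:33307360-33308845), chromosome 10 (chr10:17198768-17222917), chromosome 12 (chr12:24273290-24284336) and chromosome 17 (chr17:23569714-23619695). The P06 means of these loci ran from -1.33 to -0.997. Their ends mark where calls stopped, not where the ratio returned to 0. On chromosomes 8, 9, 10 and 17 the nearest probes outside lay at -1.29 to -1.05 in plant 35. On chromosome 5 the nearest lay at -0.22 on the left and -1.27 on the right. On chromosome 12 the nearest lay at -1.25 on the left and 0.30 on the right. The low probes had median “M92-220” signals of 22194 to 51255 in plant 35, against a median of 1054 over the whole array. On chromosome 17, with the most probes of these 6, the means were -1.07 in plant 35, -1.12 in plant 45, -0.86 in plant 15 and -1.28 in plant 39. Without probes over 10000, the P06 mean was -0.51 on chromosome 5, -0.85 on chromosome 9, -0.89 on chromosome 10, -1.15 on chromosome 12 and -0.64 on chromosome 17. Brightness moved with the ratio outside the loci too, as given below, and its part in these 6 loci was not tested.

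The loci with few low probes were low at a small part of their probes. On chromosome 2 (chr2:39086969-39133739), 4 of 64 probes were low, with medians of -2.09 in plant 35, -1.97 in plant 45 and -2.21 in plant 15, and 0.016 in plant 39. On chromosome 6 (chr6:12304817-12986546) 8 of 1148 probes were low, on chromosome 16 (chr16:1240970-1740774) 34 of 832, and on chromosome 18 24 of 578 (chr18:12882767-13669252) and 11 of 458 (chr18:14271259-14710611). At these last 4 the low probes were low in the P05 plants as well, with medians of -1.94, -2.32, -2.70 and -1.60 in plant 39. The means of the 5 loci lay between -0.23 and 0.048 in P06.

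Outside the loci, 84 lower probes were scattered over all 20 chromosomes, and 80 of them had no other lower probe within 3 probes. Of the 84, 78 (92.9%) had an “M92-220” signal above 10000. Only 3 had a mean at or below -2. The lowest was Gm_CUST_P11209911 on chromosome 8 (chr8:6358131-6358190), with log2 ratios of -6.38 in plant 35, -6.77 in plant 45, -6.49 in plant 15 and -0.032 in plant 39. Its mutant signal was not well above background in either P06 plant, so it was at least 24.3-fold lower (limma's treat test, adjusted p 1.37e-11), or 5.24-fold lower under normexp with its offset. The 3 probes on each side of it lay between -0.47 and -0.028 in the P06 plants, and the nearest were 331 bp and 377 bp away. The others were a pair on chromosome 3. Gm_CUST_P10363326 was at -3.96 and -4.00, and at -0.23 and -0.35 in the P05 plants. Gm_CUST_P10366598 was at -3.14 and -3.47, and at -3.43 in plant 15 and -0.36 in plant 39. For Gm_CUST_P11209911, the study reported from sequence reads a deletion of a single base pair at the breakpoint of a reciprocal translocation.

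The 5 called probes with the lowest ratios lay in these loci. Their mutant signal was not well above background in either P06 plant, so their order is not measured and only the bounds are. Gm_CUST_P11107227 of the chromosome 7 locus (chr7:25706630-25706682) was at -9.25 in plant 35 and -9.78 in plant 45, against -0.29 and -0.52 in the P05 plants, and was at least 252-fold lower than “M92-220”. Another 3, Gm_CUST_P11597597, Gm_CUST_P11598171 and Gm_CUST_P11597978 of the first chromosome 10 locus, were at least 122-fold, 152-fold and 110-fold lower. The remaining one, Gm_CUST_P12868399 of chromosome 18, was at least 129-fold lower in P06 and was low in all 4 plants.

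The 5 called probes with the highest ratios all lay on chromosome 18, and the P05 plants were high at each. One of them, Gm_CUST_P12861486 (chr18:11242368-11242427), was at 8.59 in plant 35, 8.54 in plant 45, 8.08 in plant 15 and 7.85 in plant 39. There “M92-220” was not well above background and P06 was at least 107-fold higher. Gm_CUST_P12867606 and Gm_CUST_P12863553, also with “M92-220” not well above background on either P06 array, were at least 51.5-fold and 45.2-fold higher. At Gm_CUST_P12861558 and Gm_CUST_P12871050 “M92-220” was well above background on the array of plant 35 alone, with signals of 34.98 and 30.6 there against 2662 and 1953 for the mutant. Of the 201 higher probes outside the loci, 179 had an “M92-220” signal not well above background in both P06 arrays, and at 138 neither dye was well above background on either array.

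By chromosome, shifts were small beside the losses. The median log2 ratio of a chromosome ran from -0.034 on chromosome 11 to 0.023 on chromosome 18, the mean of both plants. Chromosomes 5, 11, 13 and 17 were the low end, at -0.016, -0.034, -0.016 and -0.022, and chromosomes 9, 14, 15, 16 and 18 the high end, at 0.015, 0.015, 0.014, 0.020 and 0.023. The medians of chromosomes 1, 2, 3, 4, 6, 7, 8, 10, 12, 19 and 20 lay between these, from -0.011 to 0.010. The plants differed by at most 0.0077, on chromosome 7, and by a median of 0.00092, so that the range across chromosomes of 0.057 was larger than the spread between the plants. Chromosome medians of P06 and P05 differed by -0.0092 to 0.0085. Across the 20 chromosomes, which share probes' brightness and the reference, the P06 median had a Pearson's r of -0.80 with the percentage of probes in dense windows, and the P05 median one of -0.73.

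The genome was cut into 1 Mb windows, of which 956 held at least 20 probes, and these were ranked by probe number into 4 classes of 239. Sparse windows, the class with the fewest probes, had 30 to 470 probes and dense windows, the class with the most, 1597 to 1911. Most lower probes lay in sparse windows. These held 7.05% of the probes and 1211 of the 1502 lower probes (80.6%), against 50 in dense windows. The large chromosome 7 locus held 777 lower probes, and the pair on chromosome 10 with nearly all probes low held 235 and 242. The share thus rests mostly on where these few loci lie, and probes of 1 locus are not separate losses. Of the 12 windows that the 5 loci with nearly all probes low overlapped, 10 were sparse. With all loci left out, 0.024% of the probes in sparse windows and 0.0047% in dense windows were called lower, which is 16 and 19 probes.

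The 5 lowest windows were all sparse and all in the chromosome 7 and chromosome 10 losses. The lowest, 20 to 21 Mb on chromosome 10, had a median of -5.50 in plant 35 and -5.58 in plant 45. Those at 28 to 29 Mb of chromosome 7, 15 to 16 Mb of chromosome 10, 26 to 27 Mb and 27 to 28 Mb of chromosome 7 followed with means of -5.51, -5.39, -5.28 and -2.26. The last of these windows also held part of the stretch that was not low. The 5 highest windows were 25 to 26 Mb of chromosome 17 (0.15), 27 to 28 Mb of chromosome 18 (0.13), 18 to 19 Mb of chromosome 10 (0.12), 4 to 5 Mb of chromosome 20 (0.12) and 20 to 21 Mb of chromosome 19 (0.11). These were far smaller than the losses, and the P05 plants were also above 0 in each.

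Windows away from the losses were shifted little but alike in both P06 plants, which share the dyes and the reference. The 932 windows with no locus probe ran from -0.14 to 0.15, and the difference between plants 35 and 45 had an SD of 0.013 across them. Of all 956 windows, those of the losses included, 224 (23.4%) were lower and 551 (57.6%) higher in limma's eBayes test against 0 (adjusted p under 0.05). Dense windows were mostly lower, with 164 of 239 called lower and 22 higher. Sparse windows were mostly higher, with 177 of 239 called higher and 23 lower. The fit gave windows the same SE of 0.0078, so the test amounted to a fixed cutoff on the P06 mean. Dense windows had a median of -0.033 in plant 15 and -0.021 in plant 39 of P05, and sparse windows 0.012 and -0.012. Of the lower windows, 162 dense and 15 sparse ones had no locus probe. The signs rest on where an array is centered. With the dense windows set to 0, the same test gave 107 windows lower and 757 higher. The spacing of sparse from dense windows does not change with the centering, and is therefore given next.

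Sparse windows lay above dense windows in P06. Their median was 0.033 against -0.040 in plant 35, and 0.042 against -0.041 in plant 45, a spacing of 0.073 and 0.082 (0.078 ± 0.0065, SD, n = 2 plants). In P05 the spacing was 0.045 in plant 15 and 0.0096 in plant 39. Both P06 plants were above both P05 plants, by 0.050 on average, but 2 plants against 2 cannot give a two-sided exact permutation p below 0.333. By chromosome, the median was taken over probes outside the loci instead of over windows. It was higher in sparse than in dense windows on all 20 chromosomes in both P06 plants. This difference ran from 0.026 on chromosome 16 to 0.13 on chromosome 11 in plant 35. It was above 0 on 19 chromosomes in plant 15 and on 14 in plant 39. In the 2 classes between them the P06 medians stayed high, at 0.039 and 0.028 in plant 35 and 0.045 and 0.021 in plant 45, so the drop lay between the dense class and the one before it.

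**Figure D3:**
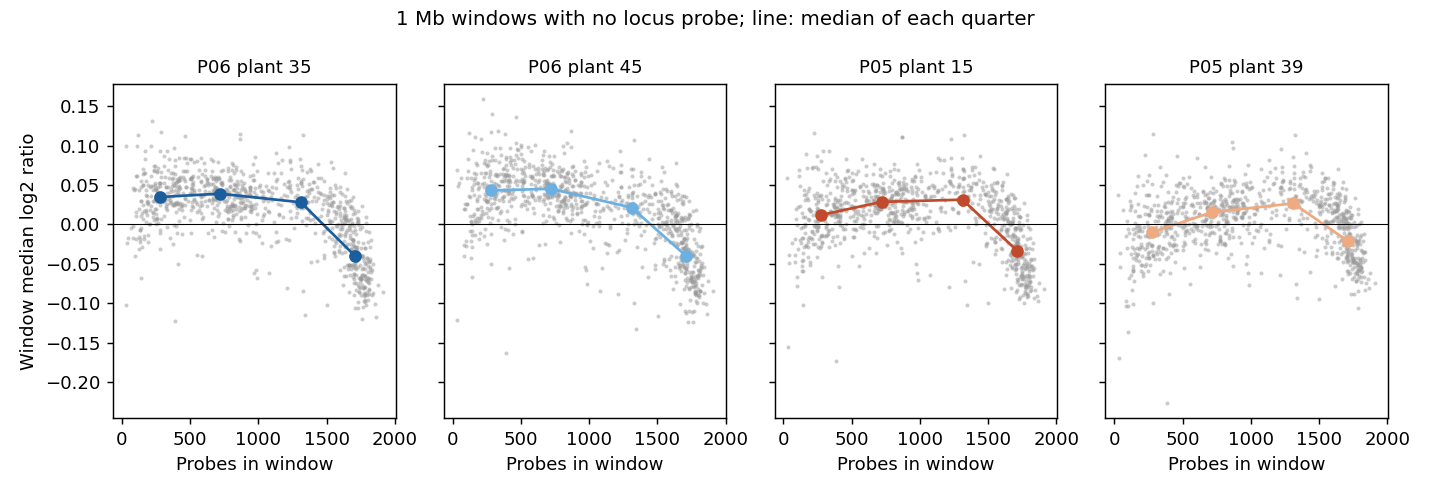
Each grey point is a 1 Mb window with no locus probe, placed by its number of probes (horizontal) and its median log2 ratio (vertical), with 1 panel per plant; the line joins the medians of the 4 classes by probe number. In both P06 plants the 3 classes with fewer probes lie above 0 and the dense class at about -0.04, while the sparse class of P05 plant 39 lies at about -0.01.

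The ratio also moved with brightness. Outside the loci, probes with an “M92-220” signal under 20 had a median log2 ratio of 0.53 in plant 35 and 0.39 in plant 45. Those at 400 to 1000 had 0.039 and 0.075, those at 2000 to 5000 had -0.088 and -0.16, and those over 20000 had -0.77 and -0.74. The same signal is the denominator of the P06 ratio, so the P05 ratios of the same bins, from other arrays, stand beside it. They fell from 0.71 to -0.68 in plant 15 and from 0.53 to -0.74 in plant 39. Of 699 probes over 20000, 10.01% were called lower, against 0.00888% of all tested probes outside the loci. Dense windows were slightly brighter, with a median “M92-220” signal of 1108 in plant 35 against 1034 in sparse windows. Across the 932 windows with no locus probe, the P06 mean had a Pearson's r of -0.64 with the log2 “M92-220” signal. With the number of probes it was -0.59. A band of 400 to 2000 was chosen after the data were seen. Among its probes alone, the spacing of sparse from dense windows was 0.071 in plant 35 and 0.075 in plant 45. Inside this band the median ratio still ran from 0.075 at 400 to 1000 to -0.048 at 1000 to 2000 in plant 45. The part of brightness in the spacing was not tested.

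**Figure D4:**
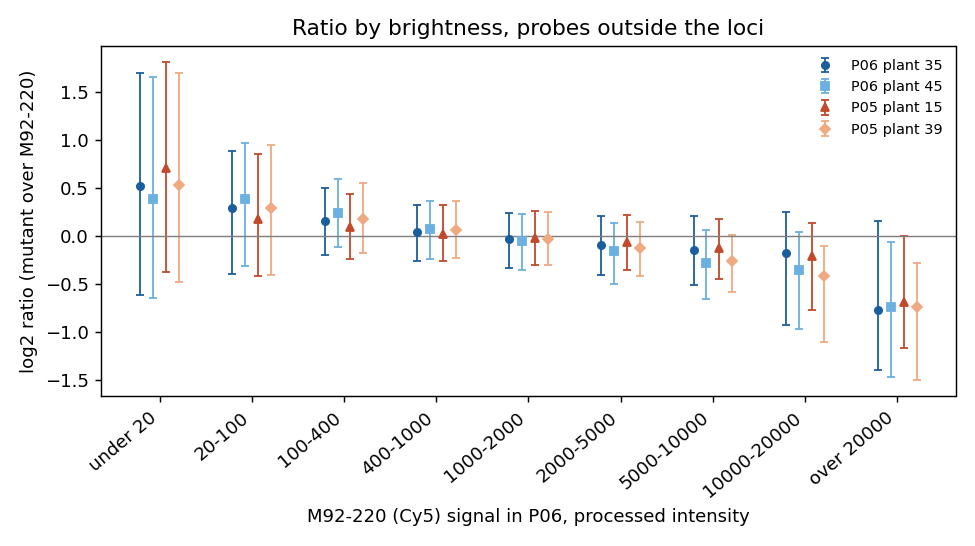
Points give the median log2 ratio (mutant over M92-220) of probes outside the loci in 9 bins of the M92-220 (Cy5) signal of the P06 arrays, in the 2 P06 and the 2 P05 plants; bars run from the 5th to the 95th percentile of probes. The median falls from 0.53 and 0.39 in the dimmest bin to -0.77 and -0.74 in the brightest in the P06 plants, and falls in both P05 plants.

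Between losses and shifts lay stretches of intermediate level. In a running median of 21 probes, the mean P06 profile rose to at least 0.4 at 7 stretches, 3 on chromosome 3 and 1 each on chromosomes 15, 16, 18 and 20, and lay between -2 and -0.5 at 4, on chromosomes 10, 12, 14 and 17. The number of higher stretches rested on the plant, with 14 outside the loci in the profile of plant 35 alone and 1 in that of plant 45 alone. The higher stretches had medians of 0.51 to 0.55 in plant 35 and 0.36 to 0.41 in plant 45, with 0.66 to 0.70 in plant 15 and 0.45 to 0.58 in plant 39. In each, 63.6% to 88.4% of the probes were not well above background in either dye, so that these values are largely ratios of background signals. Their median “M92-220” signal was 6.65 to 11.5 in plant 35, where the faintest well-measured one was 24.3. The lower stretches were bright, from 7.19 to 27.1 times the array's median in plant 35. The one that no locus covered, on chromosome 14 (chr14:10361352-10380278), had medians of -0.88 in plant 35, -0.96 in plant 45, -0.71 in plant 15 and -1.11 in plant 39. None of the 11 stretches was at an intermediate level in P06 alone. Whether brightness gave these levels was not tested.

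**Figure D5:**
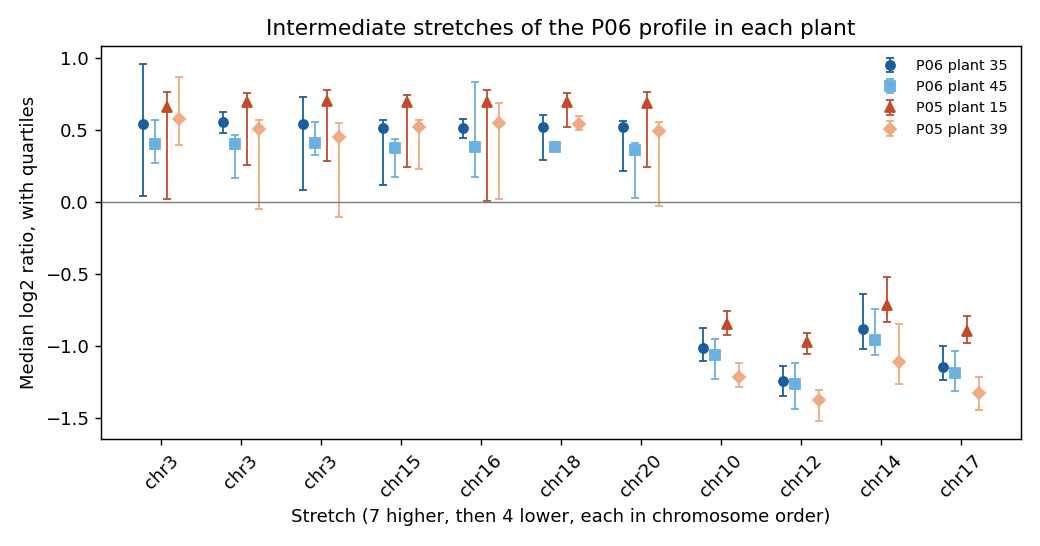
Points give the median log2 ratio of each of 11 intermediate stretches of the mean P06 profile, in the 2 P06 and the 2 P05 plants, and bars its quartiles across probes. The 7 higher stretches lie at 0.36 to 0.55 in the P06 plants and the 4 lower at -1.26 to -0.88, and all 4 plants lie on the same side of 0 at each.

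The P06 plants carried the same profile at this resolution. The running median of 21 probes differed by at most 0.29 between plants 35 and 45 and reached 0.5 nowhere, while between the P05 plants it differed by up to 6.44 and reached 0.5 at 993 positions. Set against P05, 4 windows (0.418%) were lower and 77 (8.05%) higher in P06 (limma's eBayes test of the difference, adjusted p under 0.05). The 4 lower windows spanned 25 to 29 Mb of chromosome 7, with differences of -1.46, -5.27, -2.27 and -5.51 ± 0.031 (the last with its SE; adjusted p 5.28e-13). The chromosome 10 windows were not among them, as P05 plant 15 was low there too. At 20 to 21 Mb the difference was -2.73 with an SE of 1.36 (adjusted p 0.20). The 77 higher windows differed by a median of 0.051, and 68 of them were sparse. With the arrays centered on dense windows, 0 windows were called higher by limma's eBayes test, while 313 windows of either direction had an unadjusted p under 0.05. The higher count was 1 without plant 35, 0 without plant 45, 302 without plant 15 and 72 without plant 39, and the 4 lower windows of chromosome 7 were called in each. The lower count was 4 without plant 35 or plant 45, 5 without plant 39 and 46 without plant 15.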

How the data were processed

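The authors hybridized 4 arrays and deposited, for each, the spot intensities of both dyes from Agilent Feature Extraction 12.0.0.7, which per the file headers are background-subtracted and dye-normalized. They also deposited a table of log2 ratios, used only as an alternative; the deposited log10 ratio and its error were not used. Each array had 963719 spots, 960745 of them probe spots. Flagged spots (244 and 229 on the P06 arrays) were left out, spots of a probe were averaged, and the log2 ratio of processed signals was centered on the array median; neither loess nor quantile normalization was applied. The median signal was 1034 to 1054 in each dye. The number of arrays limits the precision.

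The probe test was run with limma 3.58.1 (R 4.3.3) on the P06 arrays alone, since P05 plants differ at P06 losses (treat against a log2 ratio of 1, Benjamini-Hochberg adjusted p under 0.05), and 1 Mb window medians with eBayes. Nothing says whether the plants were grown separately, so p-values measure only the spread between these samples. All 4 arrays were scanned singly, 1 per slide, so no slide batch could be tested. On simulated ratios for 951298 probes, the test recovered 100% of the changed probes at log2 shifts of 2, 3 and 5. The simulated noise was normal, independent between probes and plants and of 1 size per plant, with no background limit. Recovery of such shifts was near certain there, so it does not measure recovery in these arrays. Named items were all loci, chromosomes, the 5 lowest and 5 highest windows and called probes, and Gm_CUST_P11209911; the chromosome 3 pair was named after its values were seen. Members, lists and tests were chosen with earlier results of these data known. Alternatives changed the flags, background (normexp on median signals), centering, table, probes, thresholds, joining distance, windows and plants. Intervals of ADM-2 were not rebuilt, and genes and probe sequences were not used here.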

Additional observations from a re-analysis of the deposited data

Results flagged for a closer look

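In 4 windows of chromosome 7, at 25 to 26 Mb, 26 to 27 Mb, 27 to 28 Mb and 28 to 29 Mb, the P06 plants were lower than the P05 plants by limma's eBayes test of the difference, with log2 differences of -1.46, -5.27, -2.27 and -5.51. Only 192 of the 314 probes at 25 to 26 Mb lay in the locus, and the window at 27 to 28 Mb held part of the stretch that was not low. The medians of these windows thus mix low probes with others. Across the genome, 77 windows were higher in P06 than in P05 by the same test, with a median difference of 0.051. Of these, 68 were sparse windows. The count rested on the processing, with 0 higher windows when the arrays were centered on dense windows and 118 under normexp.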

How the results depend on the processing

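Leaving out a plant gave 803 to 814 lower probes, 153 to 155 higher probes and 5 loci. For windows of P06 against P05 it gave 4 to 348 calls, the most without plant 15. A fit to all 4 arrays gave 832 lower probes, 80 higher and 7 loci. In these fits the chromosome 7 locus was the only one of the 5 loci with nearly all probes low that was called; under the other alternatives for the test or the signals all 5 were. A threshold of 0.5 gave 2807 lower probes, 948 higher and 137 loci, and eBayes with a mean beyond 1 gave 855 higher and 50 loci. Both plants beyond 1, with no test, gave 421 higher. Normexp gave 46 higher and 123 windows against P05, and a spacing of sparse from dense windows of 0.071. Probes with “M92-220” well above background gave 34 higher and 130 windows against P05. After the data were seen, 3 alternatives were added. Without probes over 10000 there were 10 loci. Probes of 400 to 2000 alone gave 917 lower, 6 higher, 8 loci and 4 windows against P05. Leaving out the probes of loci and intermediate stretches gave 790 shifted windows and a spacing of 0.079. Joining within 100 kb gave 26 loci over 4513 kb, against 8645 kb for the 16 loci, and runs of 3 probes at -2 gave 101. Windows of 0.5 Mb gave 1492 shifted and 37 against P05, windows of 2 Mb 427 and 150. Window means gave 5 and centering on dense windows 4 against P05. Windows split at their median number of probes gave a spacing of 0.041. The mean of the chromosome 18 locus that starts at 12882767, 0.048, became -0.0055 with “M92-220” well above background and -0.047 with probes of 400 to 2000. Under normexp all 27 named loci and probes moved by more than the SD between the plants. Over all signal settings, 64 of their 223 values did so without a change of sign. No paired analysis was possible because no plant number occurs in both lines. Signals not well above background limit losses to bounds, and probe spacing limits their edges.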
